A study of Mus musculus with 2 samples.

Results

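Among the primary cells of newborn mouse rib cartilage, 1082 were chosen by how much of their RNA came from 7 genes, Runx3, Wnt5b, Lef1, Ptch1, Pkdcc, Smoc1 and Slc35f1. The score of a cell was the summed UMI counts of these genes (a UMI is a barcode that tags 1 captured RNA molecule) divided by all UMIs of the cell. Of 11896 primary barcodes, 10829 had at least 500 genes, at least 5000 UMIs, at most 10% mitochondrial UMIs and Col1a1 under 0.3% of UMIs. The highest-scoring 10% of them are called the selected cells here, and the remaining 9747 the other cells. The 7 genes are thus high in the selected cells by construction, and their levels are a description.

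The study sequenced 1 library of primary costal-cartilage-derived stem cells (CDSCs) and 1 library of cultured CDSCs at passages 2 to 3, to compare the cells before and after expansion. The methods describe enzymatic digestion of costal cartilage from neonatal C57BL/6J mice that were CD45.1 or ZsGreen, and sorting of CD45-CD51+ cells. Both libraries are labelled as bone marrow. How many animals were pooled was not given in the sources used here, and the 2 libraries shared 32 cell barcodes of 11896 and 10798.

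Chondrocytes of growing cartilage pass from a resting to a proliferating state, and then through a prehypertrophic to a hypertrophic state. Prehypertrophic cells are known for Ihh, the hedgehog ligand of cartilage, for Pth1r, the receptor of parathyroid hormone-related protein (PTHrP), and for the transcription factors Runx2 and Runx3, while hypertrophic cells make collagen X from Col10a1. Hedgehog signalling is read out by its targets Ptch1 and Gli1, and PTHrP, encoded by Pthlh in resting cells, delays hypertrophy.

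Cartilage genes were high in the selected cells as a group. Col2a1, the collagen of cartilage, stood at 41655 CPM (UMI counts scaled to 1000000), and Acan, the main proteoglycan core protein of cartilage, was found in 99.7% of selected and 99.6% of other cells. A UMI of Col2a1 was found in every barcode of both groups, also in those with genes of blood, vessel or mast cells, so its presence alone separated no cell type. The UMI of the ZsGreen reporter was found in 94.8% of selected and 94.3% of other cells. Of the sort markers, Itgav, which encodes CD51, was found in 47.9% of selected and 51.8% of other cells, and Ptprc, which encodes CD45, in 0.462% and 0.769%. The endothelial, erythroid and haematopoietic lists summed to 9.99, 1.91 and 12.4 CPM in the selected cells, against 16.1, 5.58 and 8.20 CPM in the other cells. Cxcl12, a defining gene of marrow stroma, stood at 0.514 against 0.795 CPM, and Lepr, another marrow stroma marker, at 5.29 against 1.76 CPM. These markers of bone marrow were thus low in both groups, though Lepr was higher in the selected cells. Depth was similar in both groups, with a median of 10912 UMIs (5009 to 56586) in selected and 10436 UMIs (5000 to 81330) in other cells.

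The name prehypertrophic was borne out only in part. Levels are CPM of UMIs summed over all cells of a group, with exact Poisson intervals at 95%. Ratios are selected over other cells, with exact conditional intervals at 95%. All intervals cover counting error only, since 1 library a group gives no spread between animals and no test. Ihh stood at 8.52 CPM (7.04 to 10.2) in selected and 3.80 CPM (3.46 to 4.17) in other cells, a log2 ratio of 1.16 (0.86 to 1.46). Its UMI was found in only 5.45% (4.18 to 6.98) of selected cells, and in 3.06% (2.72 to 3.42) of other cells, intervals that do not overlap. At an equal depth of 5000 UMIs, with fewer counts, it was found in 2.03% (1.28 to 3.06) and 1.52% (1.29 to 1.78), which overlap. Pth1r differed by less than its counting error, at 60.4 CPM (56.4 to 64.7) and 61.7 CPM (60.3 to 63.1), a log2 ratio of -0.03 (-0.14 to 0.07). Runx2 was higher, at 186 CPM against 98.3 CPM, a log2 ratio of 0.92 (0.86 to 0.98). Col10a1 was nearly absent, with 5 UMIs in the 1082 selected cells and 77 in the 9747 other cells.

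Besides Ihh, 3 other rare members of the prehypertrophic list were higher and 2 were not. Panx3, a channel protein of prehypertrophic and hypertrophic cartilage, stood at 6.61 against 0.778 CPM, Sp7, the osteoblast transcription factor, at 2.06 against 0.310 CPM, and Dlx5, a homeobox factor, at 4.11 against 0.820 CPM. Foxa2, a forkhead factor, stood at 3.97 against 5.41 CPM, and Dlx6 had 0 UMIs in the selected cells. Of the 12 genes of that list outside the score, 6 reached 10 CPM in either group, and Runx2 was the only one of them past a fold of 1.5. The median log2 ratio of the 6 was -0.04, and 2 of them had a ratio above 0. The background for such counts is the whole transcriptome, where 7774 genes reached 10 CPM, leaving out the 7 genes and the mitochondrial and ribosomal protein genes. Of these, 268 (3.45%) were past the fold upwards in the selected cells and 235 (3.02%) downwards, with a median log2 ratio of 0.04. With TMM scaling, a trimmed-mean normalisation, the counts were 220 upwards and 284 downwards. Of the 4 hypertrophic genes that reached 10 CPM, Slc13a5, a citrate transporter, was higher at 11.1 against 5.21 CPM and Cd200, a membrane glycoprotein, lower at 37.7 against 81.5 CPM. Because Ihh was seldom detected and Pth1r was level, the cells are called here by the genes that chose them.

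The 7 genes that made the score have varied roles. Runx3 is a transcription factor of chondrocyte maturation, Wnt5b a secreted Wnt ligand, Lef1 the nuclear partner of beta-catenin and Ptch1 the receptor and target of hedgehog. Pkdcc is a secreted tyrosine kinase needed for limb bone growth, Smoc1 a matricellular protein that modulates BMP signalling, and Slc35f1 a member of a solute carrier family. In selected against other cells, Runx3 stood at 79.2 (74.6 to 84.1) against 3.32 CPM, Wnt5b at 51.6 (47.9 to 55.6) against 2.90 CPM and Lef1 at 144 (138 to 151) against 12.5 CPM. Ptch1 stood at 99.9 (94.6 to 105) against 14.0 CPM, Pkdcc at 114 (108 to 120) against 17.7 CPM, Smoc1 at 50.2 (46.5 to 54.1) against 5.73 CPM and Slc35f1 at 162 (155 to 169) against 3.43 CPM. The lowest selected score was 307.8 and the highest unselected score 307.2 CPM of summed score genes. The 50 cells just inside the threshold held 2 to 8 such UMIs (median 3), and the 50 just outside held 2 to 9 (median 3), so that the edge of the group was not a step.

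The evidence per cell was thin. A selected cell held a median of 6 UMIs of the 7 genes, with a range of 2 to 48. In 364 selected cells (33.6%) the score rested on 2 to 4 UMIs, and in 348 (32.2%) on 10 or more. Just 11 of the 9747 other cells held 10 or more, while 5534 of all cells (51.1%) held none. In 145 selected cells a single one of the 7 genes was detected, and in 34 all 7 were. Cells with 4 or more of the 7 made up 42.5% (39.5 to 45.5) of the selected and 0.503% (0.372 to 0.664) of the other cells. The plot of genes detected per cell shows this difference.

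**Figure D1:**
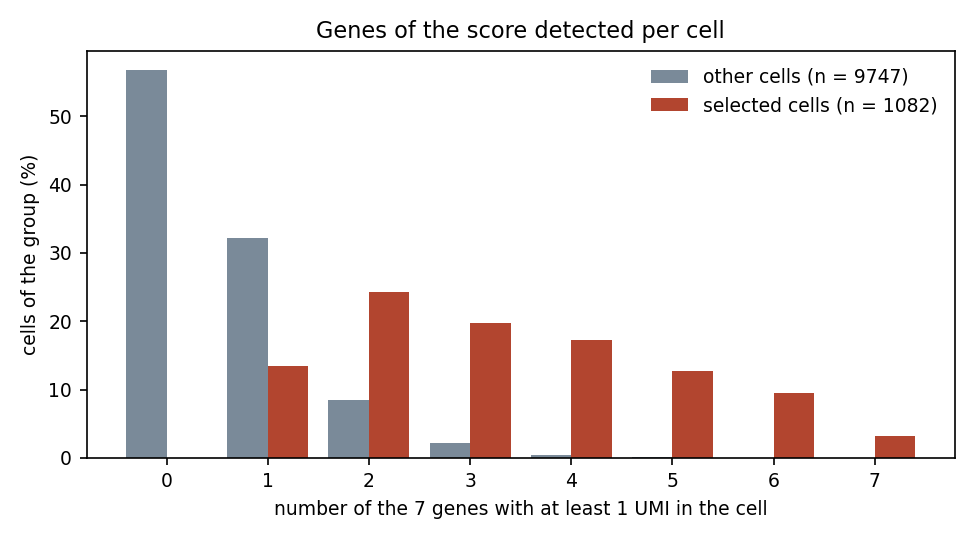
Share of cells (vertical axis, percent of the group) by the number of the 7 score genes detected in the cell (horizontal axis), for the 1082 selected and the 9747 other cells. Selected cells spread from 1 to 7 genes, while 56.8% of other cells held none and 32.2% held 1.

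Each of the 7 genes was found in a larger share of selected than of other cells, with and without thinning to equal depth, and 3 of them are given here. At 5000 UMIs a cell, Lef1 was found in 45.6% of selected and 5.37% of other cells, Slc35f1 in 38.1% and 1.13%, and Runx3 in 23.7% and 1.56%. Without thinning, the shares were 65.8% and 11.0% for Lef1, 50.5% and 2.69% for Slc35f1, and 38.2% and 3.68% for Runx3. As a reference for free RNA, 17 unselected barcodes with at least 10 UMIs of endothelial, haematopoietic and mast cell genes were taken (median 13585 UMIs). They still held Col2a1 at 29051 CPM, Acan at 1059 CPM and Sox9 at 791 CPM. Whether they contained chondrocytes was not tested, so they cannot measure free RNA of the score genes. At equal depth Runx3, Lef1 and Smoc1 were found in 0 of these 17, which allows a share of up to 19.5%. Wnt5b and Pkdcc were found in 1 of them each, and Ptch1 and Slc35f1 in 2 each. Ptch1 (30.6 against 14.0 CPM), Wnt5b (11.5 against 2.90 CPM) and Slc35f1 (11.5 against 3.43 CPM) stood higher there than in the other cells. These levels rest on 8, 3 and 3 UMIs, and the remaining score genes stood lower there. The reference left out 1 such barcode because it was selected, the mast cell barcode described below. It held 2 UMIs of Runx3 and 1 of Pkdcc, so the 0 for Runx3 depends in part on the selection.

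The genes of the score occurred together where the rule for choosing cells did not require it, but the genes themselves were chosen with earlier results of these data known. When cells were chosen by the other 6 genes alone, the gene that was left out was still higher in the chosen cells. It was 16.6-fold higher for Runx3 (log2 4.05, 3.90 to 4.21), 16.7-fold for Slc35f1 (4.07, 3.95 to 4.18) and 12.7-fold for Wnt5b (3.66, 3.48 to 3.84). The ratio was lower for Smoc1 (5.85-fold), Lef1 (4.79-fold), Pkdcc (4.70-fold) and Ptch1 (3.68-fold). When the UMIs of each cell were split at random in 2 parts of equal size, and cells chosen on the first and measured on the second, 836 of the 1082 chosen cells (77.3%) were again the selected ones. Runx3 was then 18.8-fold and Ptch1 4.85-fold higher. These values come from the same library and the same cells. Because of how the genes were chosen, high ratios among them could be foreseen. The ratios describe how closely the genes were tied and are no independent evidence of a cell group. The same limit holds for the ratios between pairs of score genes given next.

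Runx3, Wnt5b and Slc35f1 were the most closely tied. Runx3 stood at 111 CPM in the 187 cells with 2 or more Wnt5b UMIs and at 6.96 CPM in the 10226 cells without Wnt5b, a 15.9-fold difference. Slc35f1 stood at 200 CPM in the 261 cells with 2 or more Runx3 UMIs and at 10.5 CPM in the 10057 cells without, a 19.2-fold difference. Ptch1 was tied less closely, from 2.17-fold higher in cells with 2 or more UMIs of Smoc1 to 4.55-fold higher in those of Runx3. Gli1, which was not in the score, was 5.7-fold to 10.8-fold higher in cells with 2 or more UMIs of any one of the 7 genes than in cells without that gene.

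**Figure D2:**
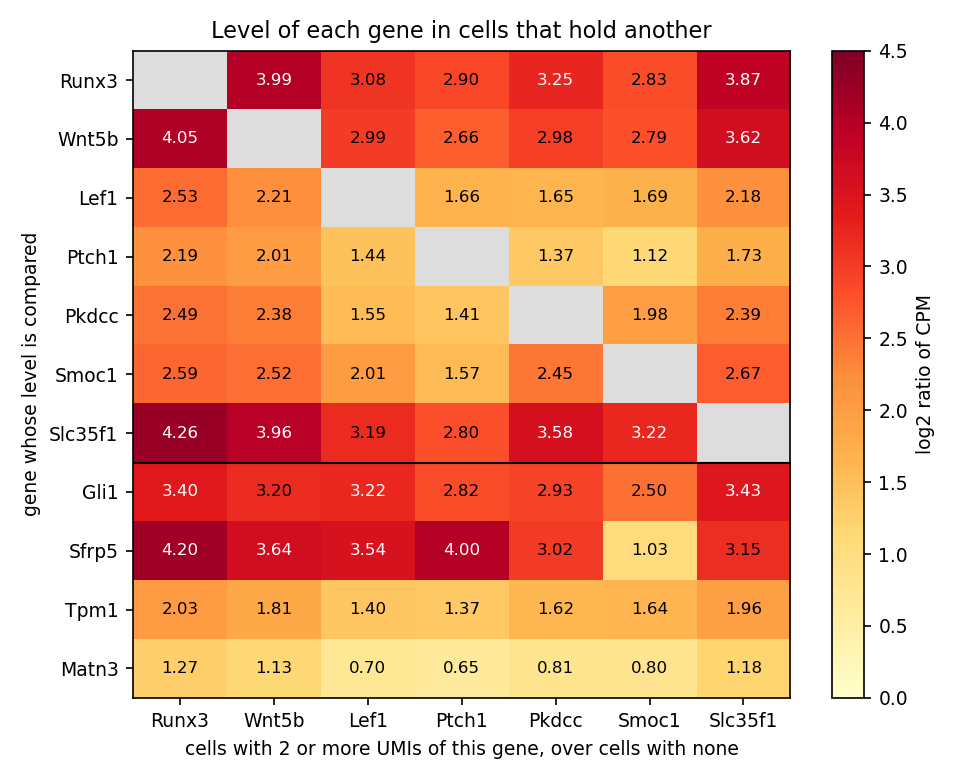
Log2 ratio of the CPM of the gene in each row between cells with 2 or more UMIs of the gene in each column and cells with none, in the 10829 primary cells. Grey squares are a gene against itself, and rows below the line are genes outside the score. All ratios are above 0, and the Runx3, Wnt5b and Slc35f1 squares are among the highest.

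Promoter windows of the score genes were searched for short cores bound by RUNX, TCF/LEF and GLI factors, the families of Runx3, Lef1 and Gli1. The windows came from RefSeq on GRCm38.p6 and hold 250 bases before and 50 after each start site. Windows were found for 6 of the 7 genes, 12 windows in all, and not for Smoc1. The RUNX core TGTGGT, read on both strands, occurred in 16.8% of all 32851 windows, the TCF/LEF core CTTTGAT in 3.73% and the GLI core TGGGTGGTC in 0.253%. One Runx3 window (chr4:135120395-135120694, plus strand) held 2 RUNX cores, the first at position -134 from the start site. One Wnt5b window (chr6:119449337-119449636, minus strand) held 1 TCF/LEF core at position -71, and the GLI core occurred in none of the 12. A match is a description of letters and no evidence of binding. Both windows are shown because they are the only ones of the 12 with a match, with the matched letters in capitals (in Runx3 the core on the opposite strand).
Runx3: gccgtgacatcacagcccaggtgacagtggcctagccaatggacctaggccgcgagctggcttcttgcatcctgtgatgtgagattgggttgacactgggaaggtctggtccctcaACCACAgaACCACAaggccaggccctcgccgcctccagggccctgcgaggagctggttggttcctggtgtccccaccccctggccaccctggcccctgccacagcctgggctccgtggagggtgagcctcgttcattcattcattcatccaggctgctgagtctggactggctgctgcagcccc
Wnt5b: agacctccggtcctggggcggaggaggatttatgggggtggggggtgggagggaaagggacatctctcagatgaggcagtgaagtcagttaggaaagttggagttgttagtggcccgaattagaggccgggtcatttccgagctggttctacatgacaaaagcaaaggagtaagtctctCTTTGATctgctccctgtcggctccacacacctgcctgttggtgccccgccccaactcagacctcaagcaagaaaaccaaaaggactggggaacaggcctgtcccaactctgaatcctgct

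Among the hedgehog genes outside the score, Gli1 differed most. Gli1, the transcription factor induced by the pathway, stood at 23.5 CPM (21.0 to 26.2) in selected and 1.59 CPM (1.37 to 1.83) in other cells, a 14.8-fold difference with a log2 ratio of 3.89 (3.62 to 4.15). It was found in 22.3% of selected and 1.72% of other cells, and in 11.8% (9.97 to 13.9) and 0.646% (0.497 to 0.826) at 5000 UMIs. Gli1 was found in 0 of the 17 reference barcodes. This allows a share of up to 19.5%, above that of the selected cells at 5000 UMIs. These barcodes were too few to judge free RNA, and they held chondrocyte genes as well. The pathway's feedback gene Hhip was also higher (0.881 against 0.343 CPM, log2 1.36, 0.30 to 2.32), from 12 UMIs in the selected cells.

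The machinery above the targets differed little. Smo, the signal transducer, had a log2 ratio of 0.06 (-0.04 to 0.17), the transcription factors Gli2 -0.08 (-0.18 to 0.02) and Gli3 -0.18 (-0.24 to -0.12), and Sufu, their inhibitor, 0.20 (0.01 to 0.38). The coreceptor Boc was lower, at 70.9 against 109 CPM. Of the 11 hedgehog genes outside the score that reached 10 CPM, 1 was past the fold upwards, 2 (Boc and the forkhead factor Foxf1, itself a known target) downwards and 8 in neither direction. Of the PTHrP genes, Pthlh was 3.50-fold higher, at 10.1 CPM (8.51 to 12.0) against 2.90 CPM (2.60 to 3.22), and the other 8 of 9 were within the fold.

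Wnt genes went both ways. Among the ligands outside the score, Wnt11 was 7.84-fold higher, at 15.3 CPM (13.3 to 17.6) against 1.96 CPM (1.72 to 2.23), and was the single one of them that reached 10 CPM. Wnt4 stood at 8.15 against 3.46 CPM and Wnt5a at 1.40 against 2.54 CPM. Ror1, a receptor for Wnt5-type ligands, was higher at 147 against 60.8 CPM, and Notum, a secreted Wnt deacylase, at 24.7 against 7.65 CPM, while the receptor Fzd9 was lower at 115 against 221 CPM and the other 14 of 17 receptors and effectors were within the fold. Of the 5 secreted inhibitors at 10 CPM, 4 were past the fold. Sfrp5 was 21.2-fold higher, at 23.3 CPM (20.8 to 26.0) against 1.10 CPM (0.917 to 1.30). Wif1, Frzb and Sfrp1 were lower instead, Wif1 at 208 against 437 CPM, Frzb at 91.1 against 143 CPM and Sfrp1 at 154 against 235 CPM. Sfrp5 and Pthlh are known from resting chondrocytes, but Wif1 and Apoe of the same list were lower, and of its 8 genes at 10 CPM, 2 were higher, 2 lower and 4 neither.

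BMP genes were likewise mixed. Bmp7, a BMP ligand, was 4.03-fold higher, at 42.1 CPM (38.7 to 45.7) against 10.5 CPM (9.88 to 11.0), and the antagonist Chrdl1 2.29-fold higher. The antagonist Grem1 was lower at 13.1 against 32.5 CPM, as were the ligand Bmp4 (12.2 against 18.6 CPM) and the pseudoreceptor Bambi (72.0 against 115 CPM). The other 21 of 26 BMP genes were within the fold. Of the TGF-beta genes, the receptor Tgfbr2 and the secreted Tgfbi were higher and the latent-TGF-beta-binding Ltbp4 lower, out of 14. Of 11 FGF genes, Fgf2 alone was past the fold, and it was lower. Of the Runx family and its partners, Runx1 went against Runx2 and Runx3, at 235 CPM (227 to 244) against 380 CPM (376 to 383), a log2 ratio of -0.69.

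**Figure D3:**
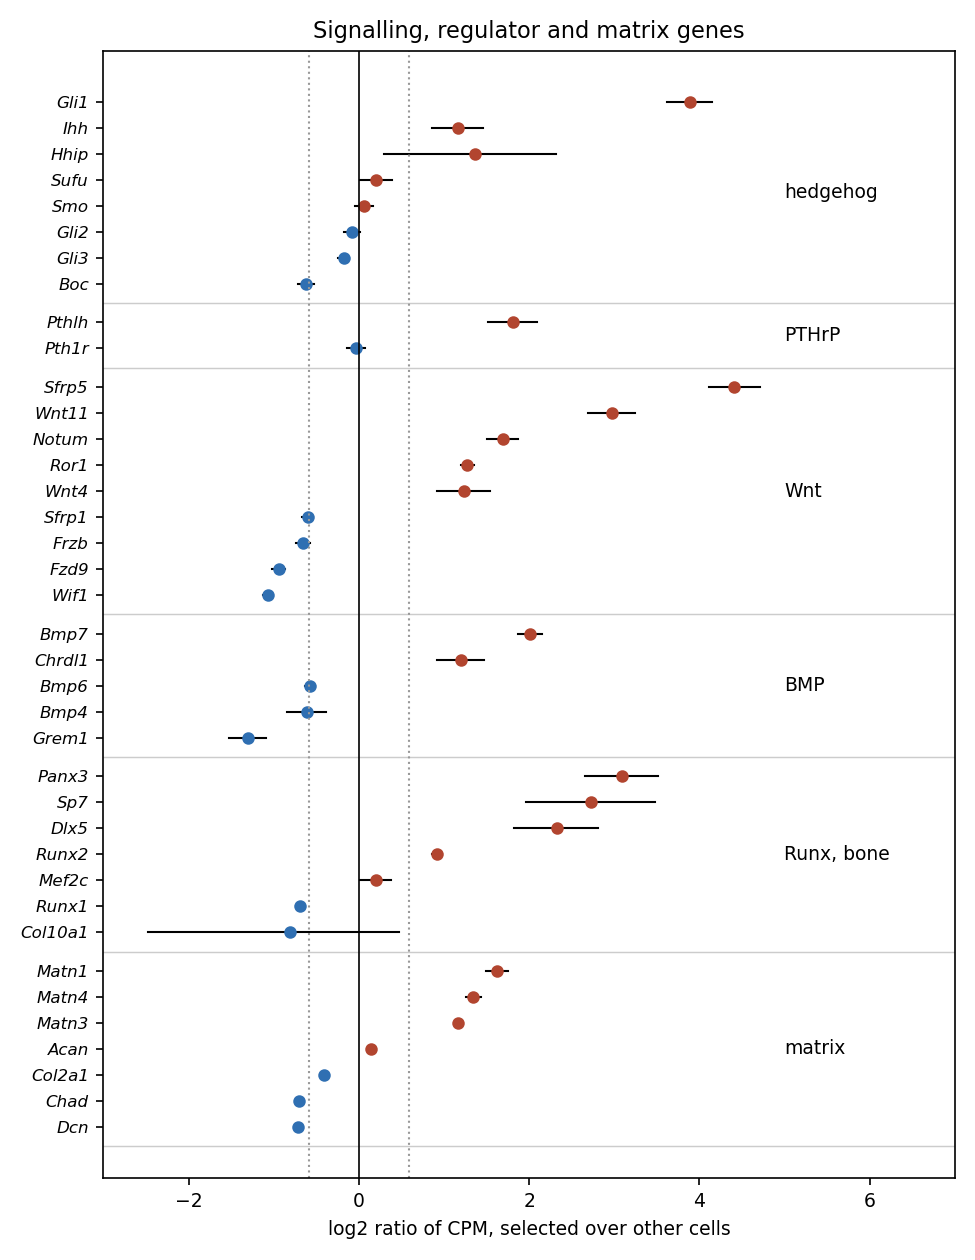
Log2 ratio of CPM in selected over other cells (horizontal axis) for genes of the hedgehog, PTHrP, Wnt, BMP, Runx and bone, and matrix groups, with exact 95% intervals for counting error as bars and dotted lines at a fold of 1.5. Gli1, Sfrp5, Wnt11 and Panx3 lie farthest to the right, and Grem1 and Wif1 to the left.

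The matrix differed in composition. Of the matrilins, adaptor proteins that link collagen and proteoglycans, the list held Matn1, Matn3 and Matn4. Matn1 was 3.08-fold higher, at 46.2 CPM in the selected cells (log2 1.62, 1.49 to 1.76), Matn3 at 1489 against 664 CPM (1.17, 1.14 to 1.19) and Matn4 at 89.3 against 35.1 CPM (1.35, 1.25 to 1.44). The small leucine-rich Chad and Dcn were lower, at 989 against 1609 CPM and 871 against 1433 CPM. Col2a1 was lower within the fold, at 41655 against 55282 CPM (log2 -0.41), and Acan and Sox9, the master regulator of chondrocytes, had log2 ratios of 0.14 and 0.10. The other 19 of 24 matrix genes were within the fold. Sox8, a close relative of Sox9, was 2.27-fold higher.

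The genes with the highest ratios at 50 CPM or more were led by Lama2, a laminin chain of basement membranes, at 71.8 against 12.2 CPM (log2 2.55, 2.44 to 2.67), and Sh3kbp1, an endocytic adaptor, at 60.1 against 12.1 CPM (2.31, 2.19 to 2.44). Tpm1, an actin-binding tropomyosin, stood at 482 against 126 CPM (1.94, 1.90 to 1.98). Clmp, a cell adhesion protein, Cpe, a carboxypeptidase, and Pdgfa, a growth factor, followed with log2 ratios of 1.73, 1.56 and 1.46. Nin, a centrosome protein, Fbln7, a fibulin, Cacna1c, a calcium channel, Alcam, an adhesion molecule, Matn4, Fscn1, an actin-bundling protein, Chd7, a chromatin remodeller, Ror1 and Vim, an intermediate filament protein, lay between 1.37 and 1.21. These genes share a cytoskeletal or adhesion role only in part, and no theme was tested.

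The lowest ratios belonged to Aoc2, an amine oxidase gene beside its close copy Aoc3 (15.3 against 67.9 CPM, log2 -2.15), and Ly6a, which encodes Sca-1 and has close copies in its family (14.1 against 50.5 CPM, log2 -1.84). Hdac9, a class II histone deacetylase, had a log2 ratio of -1.56. Eln, which encodes elastin, stood at 74.5 against 215 CPM (-1.53), Trf, an iron carrier, at 61.1 against 173 CPM (-1.50), and Serpinf1, a secreted serpin, at 243 against 633 CPM (-1.38). A2m, Plin2, Avpr1a, Gpnmb, Cd200, Prg4, Aspn, Wif1 and Cxcl14 completed the 15, between -1.21 and -1.07. Of the superficial-zone genes, Prg4, which encodes lubricin, was the only one of 5 past the fold. Of the 10 perichondrial and tendon genes, Ly6a, Col1a2 and Scx were lower and none higher, where Col1a1 was limited by the filter.

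Levels of genes outside the score were followed over its range. Most of those given were past the fold between selected and other cells, so a difference between low and high scores could be foreseen. Cells were ordered by score into those at 0 (5534 cells), those above 0 but unselected (4213), and 4 groups of 270 or 271 selected cells. Gli1 stood at 0.643, 2.54, 12.1, 11.6, 27.2 and 41.7 CPM over these 6 groups, and Sfrp5 at 0.457, 1.74, 9.03, 11.6, 22.8 and 48.4 CPM. Tpm1 went from 107 to 746 CPM, Lama2 from 7.80 to 108.5 CPM and Runx2 from 90.7 to 258 CPM. Serpinf1 went the other way, from 648 to 85.2 CPM, Wif1 from 493 to 104 CPM and Runx1 from 383 to 156 CPM. Eln stood at 200 CPM at score 0, 230 CPM above 0, 95.6, 100.1 and 80.7 CPM in the first 3 selected groups and 23.3 CPM in the last. Pth1r stayed between 53.1 and 67.1 CPM in all 6. Panx3 stood at 0.593 CPM at score 0 and 14.9 CPM in the top group, where Ihh stood at 13.1 CPM.

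**Figure D4:**
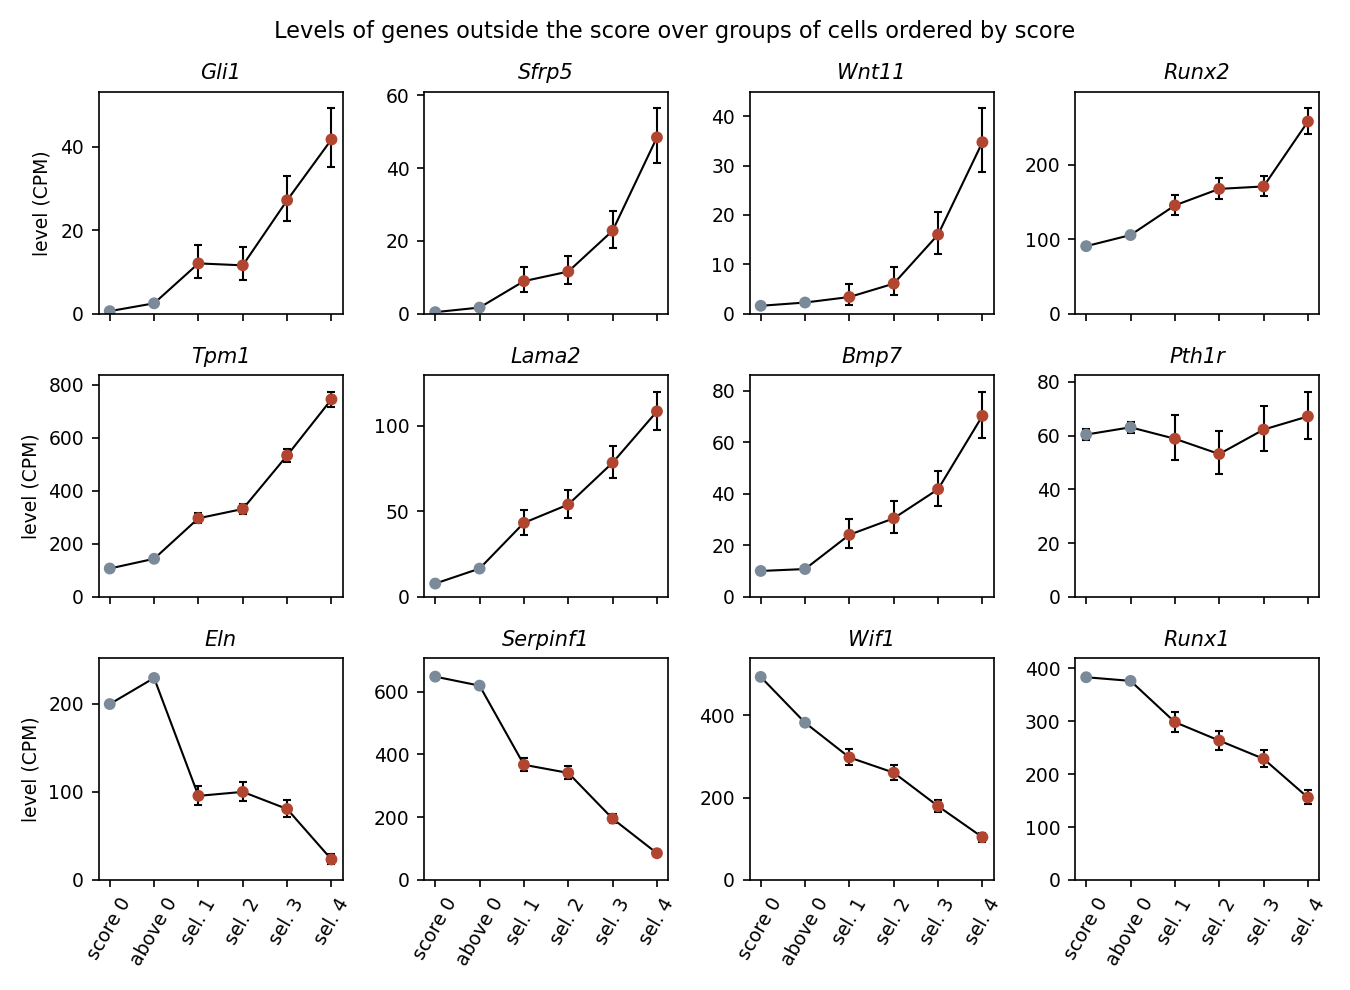
Level in CPM (vertical axis, from 0) of 12 genes outside the score in 6 groups of primary cells ordered by score (horizontal axis: score 0, above 0 but unselected, and 4 groups of selected cells from lowest to highest), with exact Poisson 95% intervals. Gli1, Sfrp5, Wnt11, Runx2, Tpm1, Lama2 and Bmp7 are highest in the last group, Pth1r shows no order, and Eln, Serpinf1, Wif1 and Runx1 are lowest in the last group.

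The selected cells gathered when the 7 genes were withheld. Clustering without them gave 9 clusters, and in cluster 5, 567 of 826 cells (68.6%, 65.4 to 71.8) were selected, which is 52.4% of all selected cells. Lama2, Sh3kbp1, Tpm1, Matn1 and Clmp led this cluster. Because the 7 genes were chosen with earlier results of these data known, a cluster rich in selected cells could be foreseen. The share describes where the selected cells lay and is no independent evidence of a cell group. In the other 8 clusters 2.52% to 20.4% were selected, the highest share in cluster 6 (37 of 181), which was led by the mitotic genes Pbk, Esco2, Hmmr, Cenpf and Ccna2. Cluster 3, led by Tll1, Spp1, Ppargc1a, Specc1 and Clu, held 168 selected cells of 1672 (10.0%). Cells at score 0 lay in cluster 5 in 1.34% of cases, and the 4 selected groups in 24.4%, 39.1%, 63.0% and 83.3%.

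**Figure D5:**
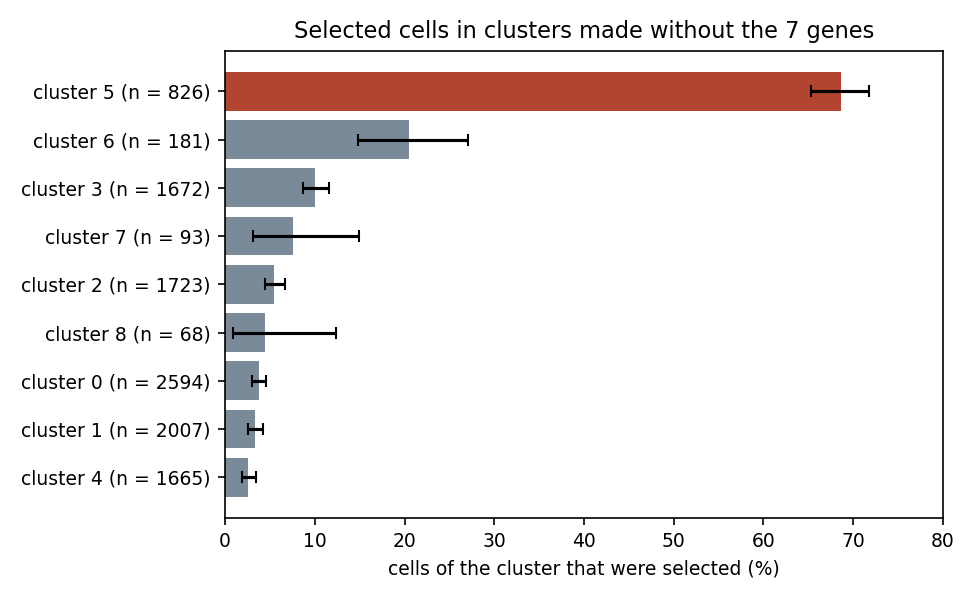
Share of each cluster that was selected (horizontal axis, percent, from 0) with exact binomial 95% intervals, for 9 clusters of primary cells made without the 7 score genes. Cluster 5 stands at 68.6% and the next, cluster 6, at 20.4%.

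The 567 selected cells inside cluster 5 and the 515 outside it were unlike. Inside, a cell held a median of 9 UMIs of the 7 genes, against 4 outside. Runx3 stood at 108 against 44.9 CPM, Wnt5b at 73.0 against 26.0 CPM and Slc35f1 at 215 against 97.5 CPM. Lef1 was instead higher outside, at 134 CPM (126 to 143) inside and 155 CPM (146 to 166) outside. Ptch1 (96.0 against 104 CPM) was about as high outside. Gli1 stood at 33.7 CPM (29.6 to 38.1) inside and 11.3 CPM (8.81 to 14.3) outside, Wnt11 at 23.2 against 5.97 CPM, Panx3 at 11.2 against 1.13 CPM and Tpm1 at 664 against 264 CPM. Ihh stood at 11.2 CPM (8.90 to 13.9) inside and 5.33 CPM (3.67 to 7.48) outside. Pthlh (9.70 against 10.7 CPM) and Notum (25.7 against 23.4 CPM) differed by less than their counting error. Eln stood at 27.2 CPM inside and 131 CPM outside, Wif1 at 86.6 and 353 CPM, and Prg4 at 8.75 and 82.2 CPM, where unselected cells outside the cluster held 219, 445 and 92.8 CPM. The 515 outside cells still differed from these unselected cells in Gli1 (1.31 CPM) and Sfrp5 (13.7 against 0.816 CPM). The 259 unselected cells of cluster 5 held Gli1 at 12.0 CPM, Sfrp5 at 11.7 CPM and Eln at 41.6 CPM. Without the cluster 5 cells among the selected, 276 genes were past the fold upwards but just 58 downwards, and Prg4, Wif1, Runx1, Chad and Dcn were no longer past it.

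Genes of dividing cells were higher as well. All 9 G2M genes at 10 CPM were past the fold, among them Top2a (23.9 against 9.93 CPM), a topoisomerase of mitosis, and Mki67 (16.0 against 8.85 CPM), with a median log2 ratio of 0.85. Of the 8 S phase genes at 10 CPM, 2 were. Cells with 5 or more UMIs summed over both lists at 5000 UMIs made up 9.98% (8.26 to 11.9) of selected and 4.21% (3.82 to 4.62) of other cells, and 38.4% and 28.8% without thinning. In the selected cells inside cluster 5 this share was 7.58% (5.54 to 10.1) at 5000 UMIs, and in those outside it 12.6% (9.88 to 15.8), while without thinning the order was the reverse, at 41.8% and 34.6%. Mki67 alone stood at 1.62 CPM inside cluster 5 and 33.3 CPM in the selected cells outside it, against 9.01 CPM in unselected cells outside. Leaving out cells with 3 or more G2M UMIs left 206 genes higher and 207 lower. Whether division bears on the other ratios was not tested beyond this.

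Marker lists of other cell types were detected in both groups at varied levels. In selected against other cells, the skeletal muscle list summed to 423 against 303 CPM, the smooth muscle and pericyte list to 465 against 351 CPM and the osteoblast list to 249 against 177 CPM. Of the osteoblast sums, 186 and 98.3 CPM were Runx2 alone. The 3 osteoblast genes at 10 CPM had a median log2 ratio of -0.35, and 1 of them had a ratio above 0. The Schwann list summed to 193 against 190 CPM, and the perichondrial list was lower at 464 against 812 CPM. Their part in the results was not tested. The mast cell list summed to 86.3 against 0.393 CPM, and 1 barcode accounted for nearly all of it. The mast cell genes Cma1, Mcpt4, Cpa3 and Tpsb2 appeared past the fold, at 36.1, 21.5, 17.0 and 11.1 CPM, out of 7 of that list. A single selected barcode of 7187 UMIs carried 1169 mast cell UMIs, 491 of them Cma1, with 6 of Col2a1, and had been selected on 2 UMIs of Runx3 and 1 of Pkdcc. Without it Cma1, Cpa3 and Tpsb2 had 0 UMIs and Mcpt4 had 3 in the selected cells, Runx3 stood at 79.1 CPM, and 264 genes were higher and 235 lower. Of the skeletal muscle genes, Acta1 was higher (31.9 against 13.7 CPM) with 5 of the 9 list members at 0 in the selected cells, and of the smooth muscle genes, Cspg4 (254 against 151 CPM). None of the 11 immediate early or 9 heat shock genes was past the fold.

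Overlaps of the selected cells with high scorers for other primary chondrocyte genes were near or below 10%. Of 1082 cells in each group, 91 (8.41%, 6.83 to 10.2) were also in the top 10% for Prg4, Clu and Cilp2, 67 (6.19%) for Acta2, Grem1 and Eln, 57 (5.27%) for Cytl1, Wif1 and Prelp, and 35 (3.23%, 2.26 to 4.47) for Trf, Fam43a, Klf5 and Foxc2. Each of these groups holds 10% of all cells. The interval of the overlap with the Prg4 score included this share, and those of the other overlaps lay below it. These intervals count cells of 1 library and are no test. Prg4, Eln, Grem1, Wif1 and Trf were lower in the selected cells, so low overlaps could be foreseen.

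In the cultured library the 7 genes parted. Under the same filters 4499 of its 10798 barcodes were kept, against 10829 of 11896 in the primary library, so most cultured barcodes were left out. The kept cells had a median of 66712 UMIs, against 10455 in the primary library. Runx3 stood at 13.3 CPM (12.9 to 13.7) in cultured and 11.1 CPM (10.5 to 11.7) in primary cells, Ptch1 at 26.6 and 22.8 CPM, Pkdcc at 31.2 and 27.6 CPM, and Smoc1 at 12.2 and 10.3 CPM. Wnt5b was lower in cultured cells, at 4.14 against 7.88 CPM, Lef1 at 1.55 against 25.9 CPM and Slc35f1 at 1.20 against 19.6 CPM. Gli1 stood at 3.83 CPM in primary cells and close to 0 in cultured cells, as did Sfrp5 (3.37 CPM). At 5000 UMIs a cell, 9.76% (8.91 to 10.7) of cultured and 11.3% (10.7 to 11.9) of primary cells reached the threshold score, and 2.82% and 9.99% without thinning. At 5000 UMIs a few UMIs reach this threshold, even of a single gene such as Ptch1 or Pkdcc. The similar shares thus do not show that the cells were alike. At that depth 152 of the 10829 primary cells (1.40%) and 0 of the 4499 cultured cells held 4 or more of the 7 genes. At their full and unequal depths, 509 (4.70%) and 721 (16.0%) did. Culture, library and sequencing run cannot be told apart here.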

How the data were processed

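The methods name the MobiDrop platform for the single-cell sequencing, and also 3' libraries made with the 10x Chromium chemistry. The authors processed the libraries, per the labels, with Cell Ranger 7.0.0. The methods give mm10 (GRCm38) as the genome that reads were aligned to, while the processing notes also list GRCm39. The authors deposited unnormalised UMI counts, whole numbers for each gene in each barcode. The study's own cell filters had no stated thresholds. The members and gene lists were chosen with earlier results of these data known.

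Counts were summed over cells, scaled to CPM, and counts under 3 were raised to 3 for ratios. A gene counted as past the fold at 1.5-fold with 10 CPM in either group. Named genes were the 7 score genes, the 15 highest and 15 lowest ratios at 50 CPM or more, list members past the fold, the leading genes of clusters, and fixed marker genes. Intervals were exact (Poisson, Clopper-Pearson, conditional) at 95% in scipy 1.17.1. One gene is not reported here. No test was run, since each group had 1 library. Leiden clusters (scanpy 1.11.5, resolution 0.5, 20 neighbours, 10 components, 2000 variable genes) left out the 7 genes. Doublets were kept in the main values, because Scrublet called 0 and had therefore failed as a caller. The alternatives used TMM factors of edgeR 4.0.16 among others. The ratio code was checked on simulated counts. Libraries held 137359014 (primary) and 336427977 (cultured) UMIs.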

Additional observations from a re-analysis of the deposited data

How the results depend on the processing

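The main counts were 268 genes higher and 235 lower. They moved with the size of the group and the limits, to 436 and 434 with the top 5%, 121 and 49 with the top 20%, 838 and 609 at 1 CPM, 84 and 103 at 50 CPM, and 88 and 49 at a fold of 2. With the score taken at 5000 UMIs a cell, 135 genes were lower, and without the selected cells of cluster 5, 58 (chosen after seeing the data, as were 3 other alternatives, on the mast cell barcode, G2M UMIs and cells with a score of 0). Cluster 5 held 68.6% selected cells, its counterpart with 30 components 73.8%, and with cell cycle, heat shock and immediate early genes removed 72.6%.

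Of 81 named genes past the fold, all 81 kept their direction with the score and the levels on separate parts of the UMIs and 72 stayed past the fold. Under the top 20%, 46 of 81 stayed past it. TMM scaling shifted log2 ratios by -0.06, which turned the balance to 220 genes higher and 284 lower. Removing the 1132 barcodes with the highest Scrublet scores, 81 of them selected, kept all 81 genes past the fold. The mast cell genes turned in direction with the top 5% (Cma1 -3.24, Mcpt4 -2.48, Cpa3 -2.16, Tpsb2 -1.52) and without Runx3 in the score (-4.25, -3.48, -3.17 and -2.52), where their 1 barcode was no longer selected. Without cells of 3 or more G2M UMIs, Cenpf (-0.32), Cdk1 (-0.13), Ccnb2 (-0.16) and Tpx2 (-1.94) turned, by construction. Without the selected cells of cluster 5, Bmp4 (0.10) and Ltbp4 (0.091) turned, and the cause was not tested. No paired analysis was possible because each group had 1 library. Counting error was small for abundant genes, while Sp7, Hhip and Col10a1 rest on 28 or fewer UMIs in the selected cells, and the spread between animals was not measurable.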

Other observations

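Several genes below the 50 CPM limit, chosen after their values were seen, had higher ratios than Lama2. Il17b, a cytokine, stood at 19.4 CPM in selected and 1.72 CPM in other cells (log2 3.49, 3.22 to 3.76), Megf6, an EGF-repeat protein, at 10.4 and 0.803 CPM (3.69, 3.30 to 4.08), and Fxyd2, a regulator of the sodium pump, at 11.4 and 1.14 CPM (3.32, 2.98 to 3.67). Lyn, a tyrosine kinase best known from blood cells, stood at 39.9 and 7.40 CPM, and at 39.9 CPM without the mast cell barcode, which held 1 of its UMIs. Ccnd1, the G1 cyclin, stood at 35.0 and 8.12 CPM, and at 51.2 CPM in the selected cells of cluster 5, where Mki67 stood at 1.62 CPM. Lepr, a marrow stroma marker, was low but higher in selected cells, at 5.29 against 1.76 CPM.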
